A study of Nematostella vectensis with 4 samples.

Results

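*Nvncol3*-high cells without *Nvncol1* are gastrula cells of the sea anemone *Nematostella vectensis* that carried many transcripts of the minicollagen gene *Nvncol3* (NV2g010686000.1) and none of the minicollagen gene *Nvncol1* (NV2g011820000.1). A barcode was a member when it had at least 500 genes, at least 5 *Nvncol3* UMIs that amounted to at least 2000 CPM, and 0 UMIs of *Nvncol1* and of the neuropeptide gene *NvLWamide*. A UMI is a molecular identifier, so a UMI count is a count of captured transcripts, and CPM are UMIs of a gene scaled to the UMIs of its cell or class on the counts-per-million scale. By this rule 1220 of 16089 barcodes with at least 500 genes were members, or 7.58%. The members were thus selected on measured values of 3 genes, and the levels of these genes are given as a description without a test.

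The cells came from whole embryos at 24 h post fertilization, dissociated as a pool and loaded as 4 replicate droplet libraries on a single chip. The labels of these samples give no treatment and no genotype. The 4 libraries are technical replicates, and p-values measure the spread between libraries and not between animals. The member cells were compared with 2 other classes of the same libraries, 310 *Nvncol1* cells (at least 2 *Nvncol1* UMIs) and 12563 low-*Nvncol3* barcodes (under 500 CPM), both with at least 500 genes.

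Minicollagens are short collagens that build the wall of the nematocyst, the explosive capsule of the cnidarian stinging cell. Stinging cells, or cnidocytes, arise in the ectoderm of the gastrula, and their precursors make capsule proteins before the capsule is complete. Minicollagen genes are for this reason standard markers of cnidocytes, and the study listed both *Nvncol3* and *Nvncol1* as such.

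The libraries differed in depth. Between 22980631 and 56880930 UMIs were deposited per library, and the median barcode with 500 genes had between 2267 UMIs in replicate 4 and 6555.5 in replicate 1. Replicate 4 stood apart: it held 718 of the 1220 member cells and 1208 of the 1794 barcodes between the *Nvncol3* limits of the classes. Without it, 502 of 8855 barcodes (5.67%) were members. Of 18779 deposited barcodes, 77 had a sequence that occurred in more than 1 library, and 7 of these were members. The class sums held 10 member cells with over 10% of UMIs on the 10 listed mitochondrial genes, and 37 above the 95th percentile of UMIs of their library.

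Member cells occurred in every library. They numbered 215 of 3680 barcodes (5.84%) in replicate 1, 182 of 2907 (6.26%) in replicate 2, 105 of 2268 (4.63%) in replicate 3 and 718 of 7234 (9.93%) in replicate 4. The share was highest in replicate 4, which also had the shallowest barcodes. The *Nvncol1* cells numbered 80, 52, 40 and 138. The low-*Nvncol3* barcodes numbered 3063, 2499, 1974 and 5027.

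*Nvncol3* was a major transcript of the member cells. The median member carried 35 *Nvncol3* UMIs, or 15158 CPM, and the cells ranged between 2006 and 60060 CPM. Over the summed UMIs of a library the member cells had 15752, 16678, 17749 and 13664 CPM of *Nvncol3* in replicates 1 to 4. The *Nvncol1* cells had 7985, 8242, 9004 and 9143 CPM, and the low-*Nvncol3* barcodes had 55.2, 31.0, 40.8 and 55.9. The rule sets a lower limit of *Nvncol3* for the member cells and none for the *Nvncol1* cells, so this order follows from it. Under the same *Nvncol3* and *NvLWamide* limits the median cell had 15158 CPM among the member cells and 16324 CPM among the 246 cells with 2 or more *Nvncol1* UMIs. The median per member cell was 22956, 22954 and 26811 CPM in replicates 1 to 3 and 10343 in replicate 4.

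The limits of the rule cut through a continuous range. Just inside the UMI limit were 80 member cells with 5 or 6 *Nvncol3* UMIs, and just outside it were 93 barcodes with 3 or 4 UMIs at 2000 CPM or more. Between 2000 and 2500 CPM lay 42 member cells, and between 1500 and 2000 CPM lay 57 barcodes that met the UMI limit. Most member cells lay far above both limits, with 761 at 10000 CPM or more. The 199 member cells under 5000 CPM came mostly from replicate 4, which held 152 of them. On the side of *Nvncol1*, 138 barcodes met every other limit but had 1 *Nvncol1* UMI, and 246 had 2 or more. A further 101 barcodes met the *Nvncol3* limits and lacked *Nvncol1* but had *NvLWamide*, and 27 had both genes.

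**Figure D1:**
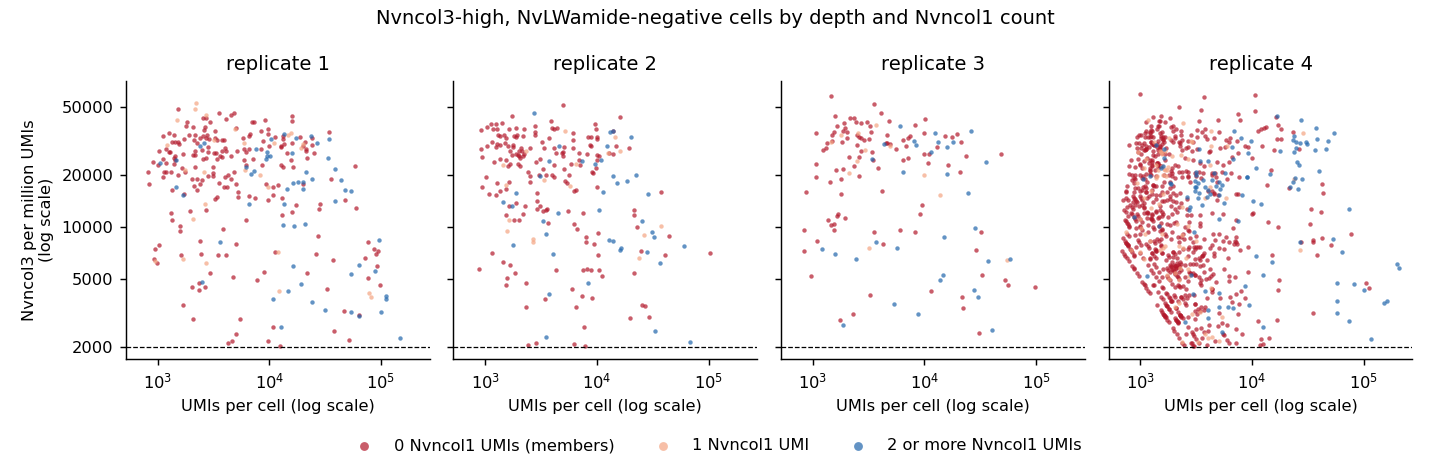
Each point is 1 of the 1604 *Nvncol3*-high, *NvLWamide*-negative cells, with its UMIs on the x axis and its *Nvncol3* CPM on the y axis, both on log scales, in 4 panels for the 4 libraries. Red points are the 1220 member cells with 0 *Nvncol1* UMIs, light points the 138 cells with 1 and blue points the 246 cells with 2 or more; the dashed line is the limit of 2000 CPM, and replicate 4 holds most of the shallow cells near it.

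The share of cells without *Nvncol1* fell with depth. Of the 1604 *Nvncol3*-high, *NvLWamide*-negative cells, 76.1% had no *Nvncol1* UMI (exact binomial 95% interval 73.9% to 78.1%). The share was 87.1% (84.1% to 89.7%) of 589 cells under 2000 UMIs, 80.2% of 414 cells with 2000 to 4000, 75.8% of 236 cells with 4000 to 8000, 62.8% of 156 cells with 8000 to 16000 and 46.9% (40.0% to 53.9%) of 209 cells with 16000 or more. Even so, 98 cells with at least 16000 UMIs each still had no *Nvncol1* UMI. In this deepest bin the share was 51.9%, 45.5%, 55.2% and 38.6% in replicates 1 to 4. These intervals cover counting error only. The median member cell had 2310.5 UMIs, against 13890.5 in the *Nvncol1* cells and 4701 in the low-*Nvncol3* barcodes.

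*Nvncol1* itself was unevenly spread. The 62 *Nvncol3*-high, *NvLWamide*-negative cells with 10 or more *Nvncol1* UMIs held 70.5% of the 3123 *Nvncol1* UMIs of the 1604 cells, and the highest cell had 459. In the *Nvncol1* cells there were 4.75 *Nvncol1* UMIs for every 100 *Nvncol3* UMIs. By the rule the member cells had 0 for 112197 *Nvncol3* UMIs.

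Clustering separated most member cells from most *Nvncol1* cells, although neither minicollagen gene, nor any other listed marker, was among the genes used to cluster. All 16089 barcodes fell into 20 clusters. Cluster 10 held 492 member cells (40.3%), cluster 11 held 304 (24.9%), cluster 12 held 127 (10.4%), cluster 14 held 73, cluster 8 held 66 and cluster 17 held 57. The other 101 member cells were spread over 11 clusters. Of the 310 *Nvncol1* cells, 205 (66.1%) lay in cluster 12, 50 in cluster 11, 33 in cluster 14 and 1 in cluster 10. Cluster 10 therefore held the largest number of member cells and almost no *Nvncol1* cell. At a higher resolution the cluster with the most member cells held 40.4% of them, and with 2000 variable genes it held 43.0%. The clusters were given no cell type name, because only 2 of the 3 listed cnidocyte markers had an ID in the files.

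In cluster 10, 492 of 527 cells (93.4%) were members, and *Nvncol1* was close to absent over all of its cells. In cluster 10 of replicates 1 to 4, *Nvncol1* had 8, 3, 0 and 3 UMIs in 1084770, 711797, 417358 and 1171520 UMIs, or 7.37, 4.21, 0 and 2.56 CPM. The count of 0 in replicate 3 allows up to 3 counts. In cluster 12 *Nvncol1* had 649, 1007, 543 and 504 CPM. *Nvncol3* was high in both clusters, with 25230, 21315, 28204 and 21575 CPM in cluster 10 and 14152, 12702, 12327 and 10733 in cluster 12. For every 100 *Nvncol3* UMIs there were thus at most 0.0292 *Nvncol1* UMIs in any library of cluster 10, against at least 4.41 in any library of cluster 12.

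The relation to depth was unequal among the clusters. Among the *Nvncol3*-high, *NvLWamide*-negative cells of cluster 10, 98.7% of 312 cells under 4000 UMIs, 96.5% of 142 cells with 4000 to 16000 and 95.9% of 49 cells with 16000 or more had no *Nvncol1* UMI. In cluster 11 these shares were 84.8% of 264 cells, 83.6% of 61 and 61.7% of 47. In cluster 12 they were 54.8% of 177 cells, 25.2% of 111 and 2.70% of 74 (exact binomial 95% interval 0.329% to 9.42%). The member cells of cluster 12 were thus mostly shallow, 97 of 127 having under 4000 UMIs, and 2 of the 74 deep cells of that cluster lacked *Nvncol1*. In cluster 10 the exact binomial 95% intervals of the shallow cells (96.8% to 99.6%) and of the 49 deep cells (86.0% to 99.5%) overlapped. The overlap is not a test of equal shares. These intervals pool the cells of 4 libraries and cover counting error only. The rule itself used the *Nvncol1* count, so the shares are a description.

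**Figure D2:**
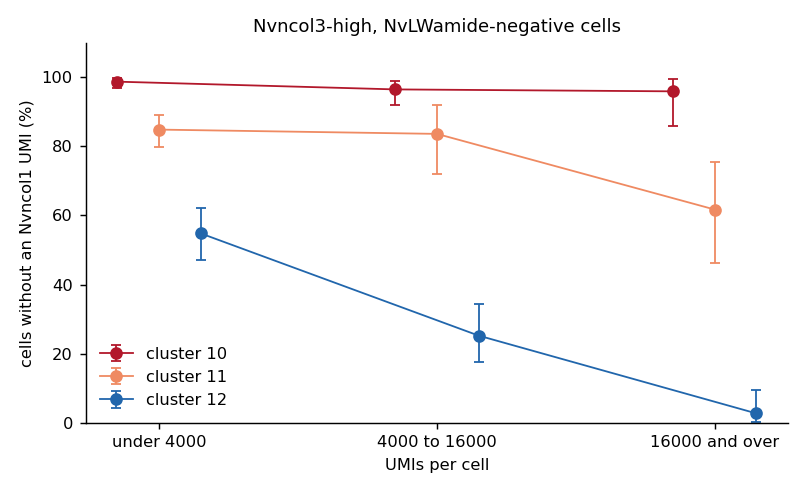
Share of *Nvncol3*-high, *NvLWamide*-negative cells without an *Nvncol1* UMI (y axis, percent) against UMIs per cell in 3 bins (x axis), for clusters 10, 11 and 12. Bars are exact binomial 95% intervals over the cells of 4 libraries pooled, and cover counting error only. Cluster 10 stays between 95.9% and 98.7%, while cluster 12 is at 54.8%, 25.2% and 2.70%.

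The makeup of the member cells differed between libraries. Cluster 10 took 55.8%, 61.0% and 61.9% of the member cells in replicates 1 to 3, but 27.3% in replicate 4. Cluster 11 held 9.77%, 6.04% and 10.5% in replicates 1 to 3 and 36.4% in replicate 4, where 261 of its 304 member cells were found. Cluster 17 was almost confined to replicate 4, with 75 of its 79 cells. As a share of all barcodes with 500 genes, cluster 10 was 3.56%, 4.09%, 3.13% and 2.85% in replicates 1 to 4, and cluster 11 was 1.52%, 0.929%, 1.01% and 5.79%. Cluster 10 was thus at its lowest share and cluster 11 at its highest in replicate 4. A cluster mostly of 1 library may be that library and not a type of cell.

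**Figure D3:**
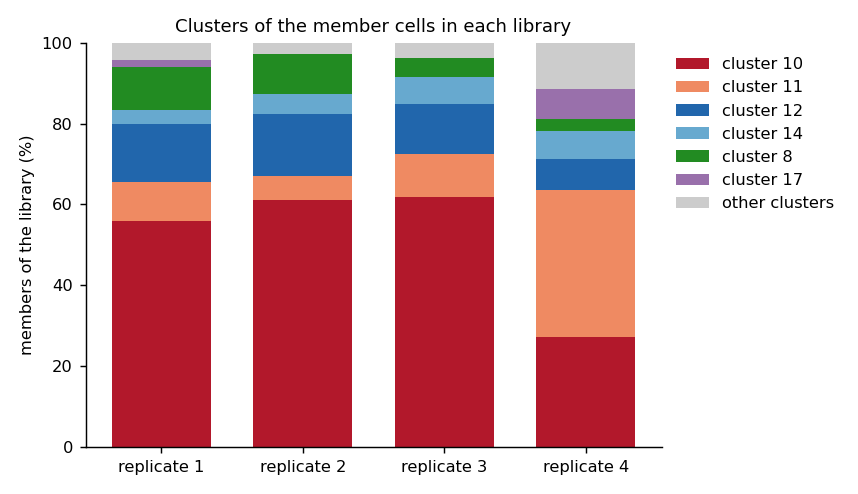
Member cells of each library (x axis, replicates 1 to 4) by the cluster they fell into, stacked as percent of the member cells of the library (y axis). Cluster 10 holds 55.8% to 61.9% of them in replicates 1 to 3 and 27.3% in replicate 4, where cluster 11 holds 36.4%.

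*Nvncol3* level also differed among the clusters. Its median per member cell was 27675 CPM in cluster 10, 23053 in cluster 14, 17447 in cluster 12, 9597 in cluster 17, 7031 in cluster 8 and 6842 in cluster 11. Among the clusters listed here, clusters 11, 8 and 17 thus lay nearest to the limit of the rule. Markers of other tissues were unequal as well. *Nvwnt2*, a Wnt ligand gene listed for the trunk ectoderm, had 47.7 CPM in the member cells of cluster 10, 19.4 in those of cluster 12, 189 in those of cluster 11 and 153 in those of cluster 17. *Nvmucin*, listed as a gland marker, had 351 CPM in the member cells of cluster 17 and 11.3 in those of cluster 10.

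*Nvncol3* was also measured in barcodes chosen by markers of other tissues, as a check on free RNA. The median member cell had 15158 CPM of *Nvncol3*. The median was 22.6 CPM in 908 barcodes with at least 3 UMIs of *NvsnailA*, a mesoendodermal transcription factor gene (median depth 33975.5 UMIs), and 0 in 1585 barcodes with at least 5 *Nvwnt2* UMIs (median depth 12890 UMIs). These sets included cells that met the *Nvncol3* limits, 39 (4.30%) of the *NvsnailA* barcodes and 101 (6.37%) of the *Nvwnt2* barcodes, of which 11 and 47 were member cells. After every cell was thinned to 1000 UMIs, 9.80% of the *NvsnailA* barcodes and 14.3% of the *Nvwnt2* barcodes had an *Nvncol3* UMI. Thinning left out 109 member cells and 1340 low-*Nvncol3* barcodes. The thinned share was 99.6% in the member cells and 4.83% in the low-*Nvncol3* barcodes, whose share before thinning was 25.4%. The rule chose these last classes by *Nvncol3*, so the gap between them follows from it. The part of free RNA in the member cells was not tested.

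The third cnidocyte marker that the study listed, *NvNgal*, has an ID that the matrices used here do not contain. The ID NV2g005200000.1 differs from it by 1 digit, was chosen after its values were seen, and is reported by ID only. In the member cells NV2g005200000.1 had 2286, 2390.4, 2276 and 2029 CPM in replicates 1 to 4. In the *Nvncol1* cells it had 2649.9, 3006, 3464 and 2953, and in the low-*Nvncol3* barcodes 15.4, 10.5, 9.48 and 25.7. Every library of the member cells was below every library of the *Nvncol1* cells and far above every library of the low-*Nvncol3* barcodes. Against the low-*Nvncol3* barcodes NV2g005200000.1 rose by 7.76 on the log2 scale (SE 0.35, edgeR quasi-likelihood test, adjusted p = 3.03e-09). Against the *Nvncol1* cells its log2 fold change was -0.46 (SE 0.13, edgeR, adjusted p = 0.0274). This call was lost without replicate 1 (adjusted p = 0.0543, edgeR), replicate 2 (0.108) or replicate 3 (0.231). For member cells at 5000 CPM of *Nvncol3* or more the log2 fold change was -0.02 (edgeR, adjusted p = 0.926). With only the *Nvncol1* cells held to the interquartile range of member UMIs, and all member cells kept, it was -1.53 (edgeR, adjusted p = 5.05e-05).

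NV2g005200000.1 was found in 1076 member cells (88.2%), against 98.1% of the *Nvncol1* cells and 9.89% of the low-*Nvncol3* barcodes. After thinning to 1000 UMIs its share was 84.2%, 85.3%, 88.1% and 72.8% of the member cells in replicates 1 to 4. In the *Nvncol1* cells the thinned share was 85.0%, 86.5%, 90.0% and 89.7%, and replicate 4 of the member cells lay below the rest. Among the member cells NV2g005200000.1 had 5149 CPM in cluster 12, 3476 in cluster 10, 2373 in cluster 14, 1252 in cluster 17, 865 in cluster 11 and 416 in cluster 8. Member cells with NV2g005200000.1 had a median *Nvncol3* level of 17392 CPM and those without it 5923.

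Across all genes, the member cells were set against the *Nvncol1* cells with UMIs summed per class and library. Of 10211 genes tested, 1188 were higher in the member cells (11.6%) and 940 lower (9.21%) at an edgeR adjusted p under 0.05, 20.8% in all, and the median log2 fold change was -0.01. These counts depended on depth and on the cells compared. With every cell thinned to 1000 UMIs, 251 genes were higher and 254 lower of 1446 tested. With only the *Nvncol1* cells held to the interquartile range of member UMIs, and all member cells kept, 400 genes were higher of 5019 tested. The median log2 fold change was 0.35 in that fit.

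The 2 IDs with the largest rise by the rule for named genes were NV2g023247000.1 and NV2g007567000.1. NV2g023247000.1 had 225, 267, 250.5 and 217 CPM in the member cells. In the *Nvncol1* cells NV2g023247000.1 had 12.4, 3.84, 2.98 and 6.09. The classes did not overlap, and the log2 fold change was 5.02 (SE 0.30, edgeR, adjusted p = 5.77e-07). It lay between 4.23 and 5.97 in the 19 alternatives run, with an edgeR or DESeq2 adjusted p of at most 7.73e-05. In the low-*Nvncol3* barcodes NV2g023247000.1 had 0.992, 1.30, 1.16 and 1.78 CPM, and the member cells were 8.06 higher on the log2 scale (SE 0.21, edgeR, adjusted p = 5.54e-11).

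NV2g023247000.1 marked a portion of the member cells. It was found in 48.4%, 44.5%, 46.7% and 22.0% of the member cells of replicates 1 to 4, and after thinning in 19.6%, 26.0%, 22.8% and 11.7%. Of the *Nvncol1* cells 6.25%, 5.77%, 5.00% and 4.35% had it, and of the low-*Nvncol3* barcodes between 0.680% and 1.11%. By cluster, it was found in 51.8% of the member cells of cluster 10, 72.7% of those of cluster 8, 21.1% of those of cluster 11, 14.0% of those of cluster 17, 0.787% of those of cluster 12 and 0 of 73 in cluster 14, where a count of 0 allows up to 3. NV2g023247000.1 was in 7.25% of the 138 cells with 1 *Nvncol1* UMI, whose median depth of 2389 UMIs was near that of the member cells. Both NV2g023247000.1 and NV2g005200000.1 were found in 370 member cells, NV2g023247000.1 alone in 22, NV2g005200000.1 alone in 706 and neither in 122.

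NV2g007567000.1 had 31.0, 35.3, 39.7 and 56.0 CPM in the member cells and 2.67, 0.961, 0.992 and 1.52 in the *Nvncol1* cells. The log2 fold change was 4.45 (SE 0.30, edgeR, adjusted p = 1.65e-06). Against *Nvncol1* cells of matched depth it was 0.70 (edgeR, adjusted p = 0.501), so the call was lost in that fit. The fit kept member cells of every depth, so it does not compare the classes at equal depth. The whole class of *Nvncol1* cells had 16 UMIs of this ID. Before thinning, 10.6% of the member cells had this ID. After thinning it was in 3.35%, 2.82%, 2.97% and 3.53% of the member cells in replicates 1 to 4. In each library 0 of the thinned *Nvncol1* cells had it. The thinned shares were not tested.

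The 2 IDs with the largest fall were NV2g006826000.1 and NV2g025294000.1. NV2g006826000.1 had 0 UMIs in the 7314762 UMIs of the member cells, and 36.8, 24.97, 45.6 and 25.1 CPM in the *Nvncol1* cells. NV2g006826000.1 was lower in the member cells (edgeR, adjusted p = 1.53e-05), by at least 80.8-fold if UMIs are taken as independent. The limit is 3 counts over the whole class, which a count of 0 allows. In the *Nvncol1* cells of replicates 1 to 4, 20.0%, 26.9%, 22.5% and 21.0% had it. Among cells that met the other limits, NV2g006826000.1 was in 2.17% of those with 1 *Nvncol1* UMI, 15.2% of those with 2 to 9 and 37.1% of those with 10 or more, whose median depths were 2389, 7181 and 23776.5 UMIs. The share grew together with depth, and the part of depth in it was not tested. NV2g025294000.1 had 0.413, 1.68, 0 and 4.61 CPM in the member cells, against 170.5, 58.6, 85.3 and 47.2 in the *Nvncol1* cells (log2 fold change -5.47, SE 0.60, edgeR, adjusted p = 4.05e-05). Its *Nvncol1* cells were few, with 6, 2, 2 and 7 cells in replicates 1 to 4. NV2g025294000.1 did not pass the filter on low counts after thinning, at matched depth, without the deepest 5% of barcodes or with *NvLWamide* cells left out, so its fall was not checked under these settings. NV2g025294000.1 had 42.5 to 56.9 CPM in the low-*Nvncol3* barcodes.

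Of the 9 markers that did not choose the cells, 0 were higher and 1 was lower in the member cells than in the *Nvncol1* cells at an edgeR adjusted p under 0.05 (also with DESeq2; at an unadjusted edgeR p under 0.05, 0 were higher and 3 lower), beside 11.6% and 9.21% of all genes, and their median log2 fold change was -0.36. The marker that fell was *NvashA*, a proneural transcription factor gene of the achaete-scute family. *NvashA* had 22.7, 4.20, 3.40 and 11.3 CPM in the member cells and 63.8, 102, 142 and 46.2 in the *Nvncol1* cells. The classes did not overlap, and *NvashA* fell by 2.90 on the log2 scale (SE 0.49, edgeR, adjusted p = 0.00102). With *NvLWamide* cells left out of both classes the log2 fold change of *NvashA* was -2.81 (edgeR, adjusted p = 0.00745). *NvashA* was found in 37 member cells (3.03%) and in 27.7% of the *Nvncol1* cells, and after thinning in 1.13% ± 0.60 and 9.22% ± 3.83 (SD, n = 4 libraries).

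The other neuronal and progenitor markers did not pass this test. *Nvelav*, an RNA-binding protein gene of neurons, had 15.7, 14.3, 21.5 and 20.6 CPM in the member cells and 24.1, 28.8, 36.7 and 21.8 in the *Nvncol1* cells (log2 fold change -0.64, SE 0.23, edgeR, adjusted p = 0.0683). This direction of *Nvelav* was not kept: its log2 fold change was 0.87 (edgeR, adjusted p = 0.0964) against *Nvncol1* cells within the *Nvncol3* and *NvLWamide* limits, 0.66 (0.166) with both classes without *NvLWamide* and 0.06 (0.938) without the deepest 5% of barcodes. *Nvath-like*, an atonal-related progenitor gene, had 10.7, 3.36, 35.1 and 25.2 against 19.7, 46.1, 23.8 and 34.8. *Nvmyc1* averaged 22.6 ± 7.28 against 27.6 ± 12.1 and *Nvnanos* 8.81 ± 1.96 against 8.33 ± 9.27 CPM (SD, n = 4 libraries). Their libraries overlapped between the classes for *Nvath-like*, *Nvmyc1* and *Nvnanos*, and not for *Nvelav*.

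The low-*Nvncol3* barcodes were 78.1% of the barcodes with at least 500 genes. Against them, 3516 of 16003 genes were higher in the member cells (22%) and 2864 lower (17.9%) at an edgeR adjusted p under 0.05. That was 39.9% in all, with a median log2 fold change of -0.13. The split depended on the scaling. The TMM factors moved the fold changes of the member cells up by 0.55 on the log2 scale, and with library totals in their place 2095 genes were higher and 8317 lower, with a median of -0.66. Directions of small changes in this comparison are therefore tied to the scaling.

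The 2 IDs with the largest rise against the low-*Nvncol3* barcodes were NV2g006104000.1 and NV2g002621000.1. NV2g006104000.1 had 16.1, 42.8, 23.8 and 9.21 CPM in the member cells, 137 UMIs in all, against 4 UMIs in the 12563 low-*Nvncol3* barcodes (log2 fold change 9.64, SE 0.65, edgeR, adjusted p = 1.44e-07). The *Nvncol1* cells had NV2g006104000.1 at 26.7, 34.6, 35.7 and 12.9 CPM, and the log2 fold change of the member cells over them was -0.30 (SE 0.47, edgeR, adjusted p = 0.716). NV2g002621000.1 had 21.5, 35.3, 22.7 and 10.3 CPM in the member cells, 143 UMIs in all, against 4 UMIs in the low-*Nvncol3* barcodes (log2 fold change 9.63, SE 0.55, edgeR, adjusted p = 3.07e-08). The *Nvncol1* cells had NV2g002621000.1 at 2.01, 2.88, 1.98 and 1.02 CPM, and the member cells were 3.59 higher on the log2 scale (SE 0.50, edgeR, adjusted p = 0.000247). The fitted folds against 4 UMIs depend on the prior count of the fit.

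Within the member cells both IDs had most of their positive cells in cluster 10, 67 of 101 cells for NV2g006104000.1 and 73 of 95 cells for NV2g002621000.1. NV2g006104000.1 was in 13.6% of the member cells of cluster 10, 16.5% of those of cluster 12, 3.29% of those of cluster 11, 5.26% of those of cluster 17 and 0 of those of clusters 14 and 8. NV2g002621000.1 was in 14.8% of the member cells of cluster 10, 8.22% of those of cluster 14, 6.06% of those of cluster 8, 2.96% of those of cluster 11, 1.75% of those of cluster 17 and 0 of 127 in cluster 12. The member cells of cluster 12 thus included cells with NV2g006104000.1 and none with NV2g002621000.1, where a count of 0 allows up to 3. The other cells of cluster 12 were not counted for these IDs.

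The 2 IDs with the largest fall against the low-*Nvncol3* barcodes were NV2g002914000.1 and NV2g011343000.1, each with 0 UMIs in the member cells. NV2g002914000.1 had 6.43, 3.26, 9.54 and 17.5 CPM in the low-*Nvncol3* barcodes and was at least 22.4-fold lower in the member cells (edgeR, adjusted p = 0.0208, and 0.0669 without replicate 1). NV2g011343000.1 had 3.48, 4.47, 5.70 and 3.22 CPM and was at least 10.3-fold lower (edgeR, adjusted p = 0.00151). Both folds rest on 3 counts over the class and hold only if UMIs are taken as independent. Few low-*Nvncol3* barcodes had these IDs, 1.06% for NV2g002914000.1 (1274 UMIs) and 1.20% for NV2g011343000.1 (482 UMIs). A bound by cells was not computed.

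Of the 9 markers, 1 was higher and 1 lower than in the low-*Nvncol3* barcodes, beside 22% and 17.9% of all genes, and their median log2 fold change was -0.32. *NvsnailA* fell: it had 13.6, 11.8, 17.0 and 15.2 CPM in the member cells and 60.9, 60.4, 62.3 and 68.7 in the low-*Nvncol3* barcodes (log2 fold change -1.58, SE 0.13, edgeR, adjusted p = 6.50e-07). Against barcodes of matched depth *NvsnailA* had a log2 fold change of 0.27 (edgeR, adjusted p = 0.744), so the call was lost in that fit. The fit kept member cells of every depth, so it does not compare the classes at equal depth. After thinning, *NvsnailA* was in 0.28% ± 0.56 of the member cells and 3.42% ± 0.73 of the low-*Nvncol3* barcodes (SD, n = 4 libraries). The thinned shares were not tested. *Nvnanos* passed the test with a log2 fold change of 0.51 (SE 0.16, edgeR, adjusted p = 0.0263), although its mean was 8.81 ± 1.96 CPM in the member cells and 9.41 ± 0.57 in the low-*Nvncol3* barcodes (SD, n = 4 libraries). With library totals in place of TMM its log2 fold change was -0.01, and with the library as a block its adjusted p was 0.101 (edgeR). *Nvwnt2* had 99.6, 65.5, 74.8 and 129 CPM in the member cells and 175, 163, 166 and 189.5 in the low-*Nvncol3* barcodes (log2 fold change -0.32, SE 0.15, edgeR, adjusted p = 0.117). With the library as a block *Nvwnt2* passed the test (log2 fold change -0.36, edgeR, adjusted p = 0.0283).

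The neuronal markers against the low-*Nvncol3* barcodes depended on the rule, which takes *NvLWamide* cells out of the member class only. *NvashA* had 26.0, 25.7, 31.6 and 31.8 CPM in the low-*Nvncol3* barcodes (log2 fold change -0.66, edgeR, adjusted p = 0.154), and against low-*Nvncol3* barcodes without *NvLWamide* its log2 fold change was 1.50 (edgeR, adjusted p = 0.00926). *Nvelav* was at 26.2, 24.99, 31.7 and 27.8 (log2 fold change -0.07, edgeR, adjusted p = 0.723), and against barcodes without *NvLWamide* at 0.86 (edgeR, adjusted p = 0.000292). *Nvmucin* averaged 14.4 ± 9.07 CPM in the member cells and 30.1 ± 3.92 in the low-*Nvncol3* barcodes, with the highest library of the member cells at 26.9 in replicate 4 (SD, n = 4 libraries). NV2g011441000.1, which the study lists for 2 ectodermal domains, averaged 63.4 ± 34.7 in the member cells, 40.1 ± 18.7 in the *Nvncol1* cells and 81.5 ± 11.3 in the low-*Nvncol3* barcodes.

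**Figure D4:**
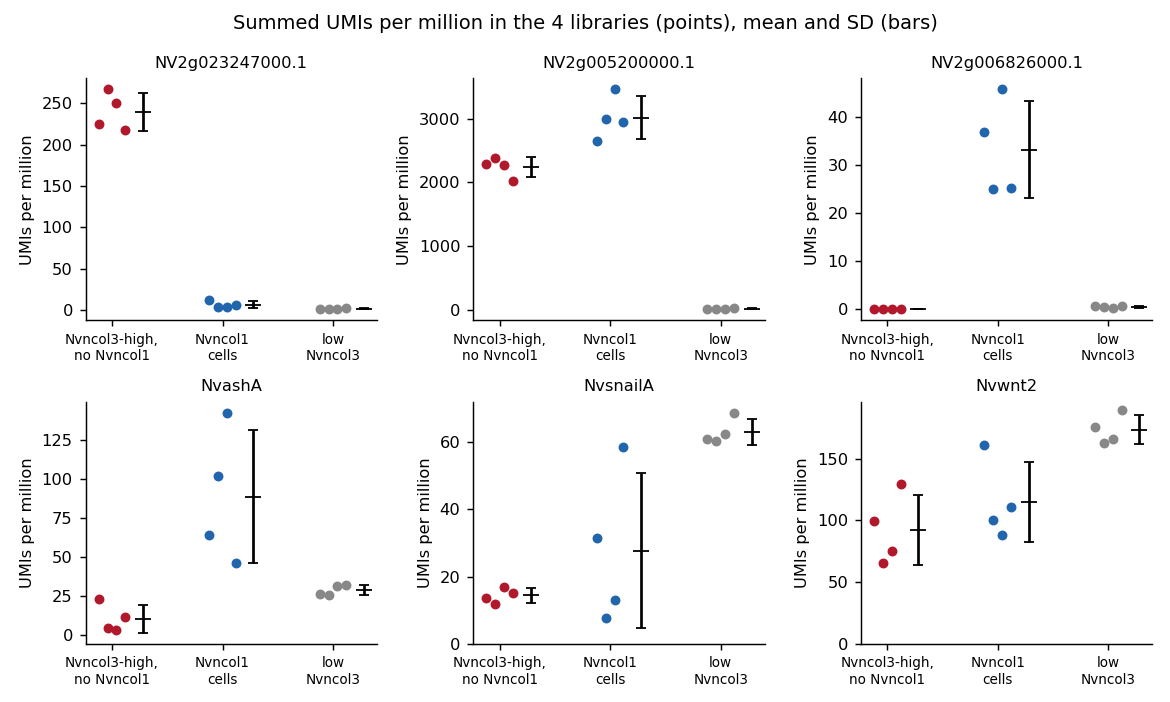
CPM (y axis, linear scale) of 6 genes in the member cells (red), the *Nvncol1* cells (blue) and the low-*Nvncol3* barcodes (grey); points are the 4 libraries and bars the mean and SD. NV2g023247000.1 is higher in the member cells, at 217 to 267 CPM, than in either other class, NV2g005200000.1 is high in the member cells and the *Nvncol1* cells, and NV2g006826000.1 and *NvashA* are lower in the member cells than in the *Nvncol1* cells.

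The 10 listed mitochondrial genes made up 0.895%, 0.917%, 0.598% and 1.27% of the UMIs of the member cells in replicates 1 to 4. They made up 0.612%, 0.591%, 0.384% and 0.465% in the *Nvncol1* cells and 1.11%, 0.910%, 0.711% and 0.858% in the low-*Nvncol3* barcodes. In each library the share was higher in the member cells than in the *Nvncol1* cells, whose cells were deeper, and the part of depth was not tested.

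At equal depth the genes per cell of the member cells lay between those of the other classes in each library. Thinned to 1000 UMIs, a member cell had on average 519, 531, 526 and 601 genes in replicates 1 to 4, an *Nvncol1* cell 511, 505, 499 and 530, and a low-*Nvncol3* barcode 604, 617, 618 and 635. The mean difference was 32.8 genes from the *Nvncol1* cells (two-sided exact permutation test, adjusted p = 0.0857, 4 against 4 libraries) and -74.2 genes from the low-*Nvncol3* barcodes (adjusted p = 0.0571, exact permutation test). Member cells had more genes than the *Nvncol1* cells and fewer than the low-*Nvncol3* barcodes in 4 of 4 libraries. All libraries of the member cells lay below those of the low-*Nvncol3* barcodes, and the unadjusted p of 0.0286 is the smallest that this exact permutation test can give with 4 against 4.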

How the data were processed

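The authors dissociated whole gastrulae, made 4 droplet libraries and deposited UMI counts per gene and barcode. The matrix headers name Cell Ranger 6.1.2 and the submitters' processing notes version 7.1.1. The sources used here do not give the build. Reads of introns and exons were counted. No deposited column was normalized.

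Matrices were joined by gene ID (24526 genes) in R 4.3.3. Members and lists were chosen with earlier results of these data known. UMIs were summed per class and library without the 3 genes of the rule, filtered with filterByExpr, scaled with TMM and tested by quasi-likelihood in edgeR 4.0.16 with Benjamini-Hochberg adjustment. The SE is the absolute log2 fold change over the square root of F. Clusters used 4000 variable genes, 30 principal components and a resolution of 0.5 in Seurat 5.3.0, without the markers or NV2g005200000.1. Doublets were not removed; leaving out the deepest 5% of barcodes was an alternative. DESeq2 1.42.0 was another. At matched depth, only the compared class was held to the interquartile range of member UMIs in each library, and all member cells stayed in. Named genes are the listed markers with an ID and, in each comparison, the 2 IDs with the largest rise and fall among genes past 0.05 that moved alike in 4 libraries with at least 20 UMIs per library in the higher class. The 21 *Nvncol1* cells that were also low-*Nvncol3* barcodes stayed in both classes. Class sums with the same replicate number share a library, which pairs them. Their deviations correlated at 0.40, 0.19, -0.0034 and 0.15 (*Nvncol1* cells) and 0.40, 0.12, 0.072 and 0.14 (low-*Nvncol3* barcodes). A count of 0 allows up to 3 counts at 95% if UMIs are taken as independent. The RefSeq table matched 0 of the IDs, so unlisted genes have no name and no sequence is shown.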

Additional observations from a re-analysis of the deposited data

Results flagged for a closer look

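At 1000 UMIs a member cell of replicate 4 had on average 601 genes, against 519 to 531 in the other libraries, and its gap was larger than Dixon's 95% critical value for 4 samples (a gap of 0.856 of the range). Of 20 such groups looked at, 1 stood out, and chance alone flags about 1 in 20. Replicate 4 also held 261 of the 304 member cells of cluster 11. The part of that cluster in the number of genes was not tested.

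Barcodes under 500 genes, which no comparison used, held 3741 CPM of *Nvncol3* over their summed UMIs, while their median was 0 CPM. The sum lay above the 2000 CPM limit of the rule, and the part of free RNA in it was not tested. These barcodes are listed because they lie outside the comparisons and are above the 1.74 CPM that a count of 0 allows. That limit does not show that they stand out. Of these 2690 barcodes, 388 met the *Nvncol3* limits of the member cells. Of the 388, 335 had no *Nvncol1* or *NvLWamide* UMI, and 277 of the 335 had NV2g005200000.1.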

How the results depend on the processing

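The number of member cells was 647 with a minimum of 1000 genes. Against the *Nvncol1* cells, genes higher numbered 251 with cells thinned to 1000 UMIs, 400 at matched depth, 614 with *Nvncol1* cells held to the *Nvncol3* and *NvLWamide* limits and 755 with both classes without *NvLWamide*, and genes lower numbered 254 when thinned. Against the low-*Nvncol3* barcodes, genes higher numbered 1910 when thinned and 2095 with library totals, and genes lower 1212 and 8317. Leaving out 1 library gave 810 to 1103 higher and 636 to 824 lower against the *Nvncol1* cells, and 2980 to 3292 higher and 1778 to 2813 lower against the low-*Nvncol3* barcodes, where 1860 genes were lower without replicate 1 and 1778 without replicate 2. With the library as a replicate block, which pairs the sums of a library, 1303 and 1098 genes were higher and lower against the *Nvncol1* cells and 3402 and 2713 against the low-*Nvncol3* barcodes. Among named genes the block changed the calls of *Nvnanos*, *Nvmyc1* (log2 fold change 0.46, edgeR, adjusted p = 0.0458) and *Nvwnt2* against the low-*Nvncol3* barcodes and no other call, and the genes per cell kept their differences, with a smallest possible p of 0.125 in the exact paired test. Log2 fold changes that changed sign and passed the test before or after the change were all against the low-*Nvncol3* barcodes, namely NV2g011441000.1 (-0.90 thinned, -0.82 at 5000 CPM, -1.02 without the deepest 5%), *Nvnanos* (-0.15 at matched depth, -0.014 with library totals), *NvsnailA* (0.27 at matched depth), and *Nvelav* (0.86) and *NvashA* (1.50) against barcodes without *NvLWamide*. Changes of sign that passed neither test include *Nvelav* against the *Nvncol1* cells (0.87 and 0.66, with *NvLWamide* cells out of both classes), *Nvmyc1* against the low-*Nvncol3* barcodes (-0.027 with library totals) and NV2g011441000.1 against them (-0.14 without replicate 3, -0.39 with library totals). The cause was not tested. Library totals, leaving out shared barcodes and leaving out *NvLWamide* cells were chosen after seeing the data. Depth limits the class, since 1 *Nvncol1* UMI decides membership and the median member cell had 2310.5 UMIs.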
